A study of Rattus norvegicus with 8 samples.

Results

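The genes that move calcium across the plasma membrane of annulus fibrosus cells (AFCs) were examined in stretched rat AFCs. They were the 10 rows of the deposited table, out of 31699 rows, whose gene symbol was that of a voltage-gated calcium channel subunit (Cacna1a, Cacna1c, Cacna1d, Cacna1e, Cacna1g, Cacna1i and Cacna2d1), a plasma membrane calcium pump (Atp2b1 and Atp2b4) or the sodium-calcium exchanger Slc8a1. Each symbol had a single row. RNA-seq had been run on 8 samples of Sprague Dawley AFCs, the cells of the outer ring of the intervertebral disc, after cyclic mechanical stretch (CMS) of 20% at 0.5 Hz for 36 h. Before CMS, 4 samples (Lv-Ctrl) had received the empty lentiviral shRNA vector pLVX-shRNA-Puro and 4 samples (Lv-Piezo1) the same vector with a short hairpin RNA against Piezo1. Infection took 24 h, at 20 infectious units per cell. Both groups were infected, carried the puromycin marker and were stretched, so no comparison here shows an effect of CMS itself. The hairpin group rests on a single hairpin sequence, and each AFC isolation pooled the annulus tissue of 8 rats, so differences between animals are averaged within a sample. The study describes 4 biological repeats, each being the experiments on the cells of a single isolation. The labels do not tell which isolation a sample came from. Samples were therefore not paired by isolation, and p-values measure the spread between these samples.

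Calcium is kept far lower in the cytosol than outside the cell. It enters through channels and is removed by pumps and exchangers. A voltage-gated calcium channel has a pore-forming alpha1 subunit, which sets the channel type. In types such as L, P/Q and R, an alpha2delta and a beta subunit bring the pore to the membrane and tune its gating. The pores of T-type channels, such as Cacna1g, do not require these subunits. Plasma membrane calcium pumps use ATP to expel calcium at high affinity, while the sodium-calcium exchanger expels calcium in exchange for sodium and can run in reverse when sodium rises in the cell. These genes are best known from nerve, heart and muscle, and Piezo1 itself is a stretch-gated channel that lets calcium in.

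The values are TPM, transcript abundance scaled for transcript length and set to the same total in each sample, so that levels of different genes in a sample can be compared. The depth of sequencing cannot be read from TPM and is unknown, which leaves the counting error unstated. The number of rows with a value was 16645 to 17022 in Lv-Ctrl and 17191 to 17657 in Lv-Piezo1. Differences were tested on log2(TPM + 1) with limma for the 13103 genes whose TPM averaged 1 or more, and on this scale the changes of low genes come out smaller than their ratios. Calls required both an adjusted p (Benjamini-Hochberg) under 0.05 and a log2 fold change of 1 or more in size, limits taken from the study's methods. The median of all tested genes lay 0.14 higher in Lv-Piezo1 on this scale, and median-ratio scaling removed that shift. Fibrous markers such as Col1a1 (3282 and 5835 TPM in the Lv-Ctrl and Lv-Piezo1 means) and Dcn (1456 and 519 TPM) were abundant, but Tnmd was at most 0.08 TPM. The summed level of the 11 fibrous markers was 7299 to 8177 TPM in Lv-Ctrl and 11130 to 11890 TPM in Lv-Piezo1. Of the 10 tested, 2 were called higher and 1 lower, against 4.91% and 2.76% of all tested genes. The knockdown was not seen in the target. Piezo1 was 30.1 ± 2.67 TPM in Lv-Ctrl and 39.4 ± 1.75 TPM in Lv-Piezo1 (SD, n = 4 each), higher in 4 of 4 samples carrying the label (limma adjusted p = 8.6e-04). Groups are therefore named as labelled, and "Lv-Piezo1" below means the samples with that label. Were the labels of the groups exchanged, every direction given here would turn, and TPM alone cannot tell.

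All 10 genes had a mean TPM of at least 1 and were tested. None of the 10 was called, against 7.67% of all tested genes. By the adjusted p alone, 4 of the 10 differed (2 higher, 2 lower), against 58.2% of all tested genes (41.9% higher and 16.3% lower). Cacna1a, a neuronal channel pore, and the pump Atp2b4 were higher in Lv-Piezo1, and the T-type channel pore Cacna1g and the exchanger Slc8a1 were lower. In the same 4 genes the groups did not overlap, which was so for 54.2% of all tested genes. The exact two-sided permutation test gave p = 0.029 for each of these 4, which groups of this size cannot go below. The median log2 fold change of the 10 genes was 0.21. The split by direction depended on the scaling. After median-ratio scaling 5 of the 10 had an adjusted p below 0.05, Atp2b1 being added as lower. Over all tested genes 3657 were then higher and 3651 lower. After quantile normalization it was 6 of the 10, Cacna1i also being added as lower. Over all tested genes 3757 were then higher and 3579 lower. RNA from bulk cultures cannot tell fewer cells that express a gene from less of its RNA per cell.

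**Figure D1:**
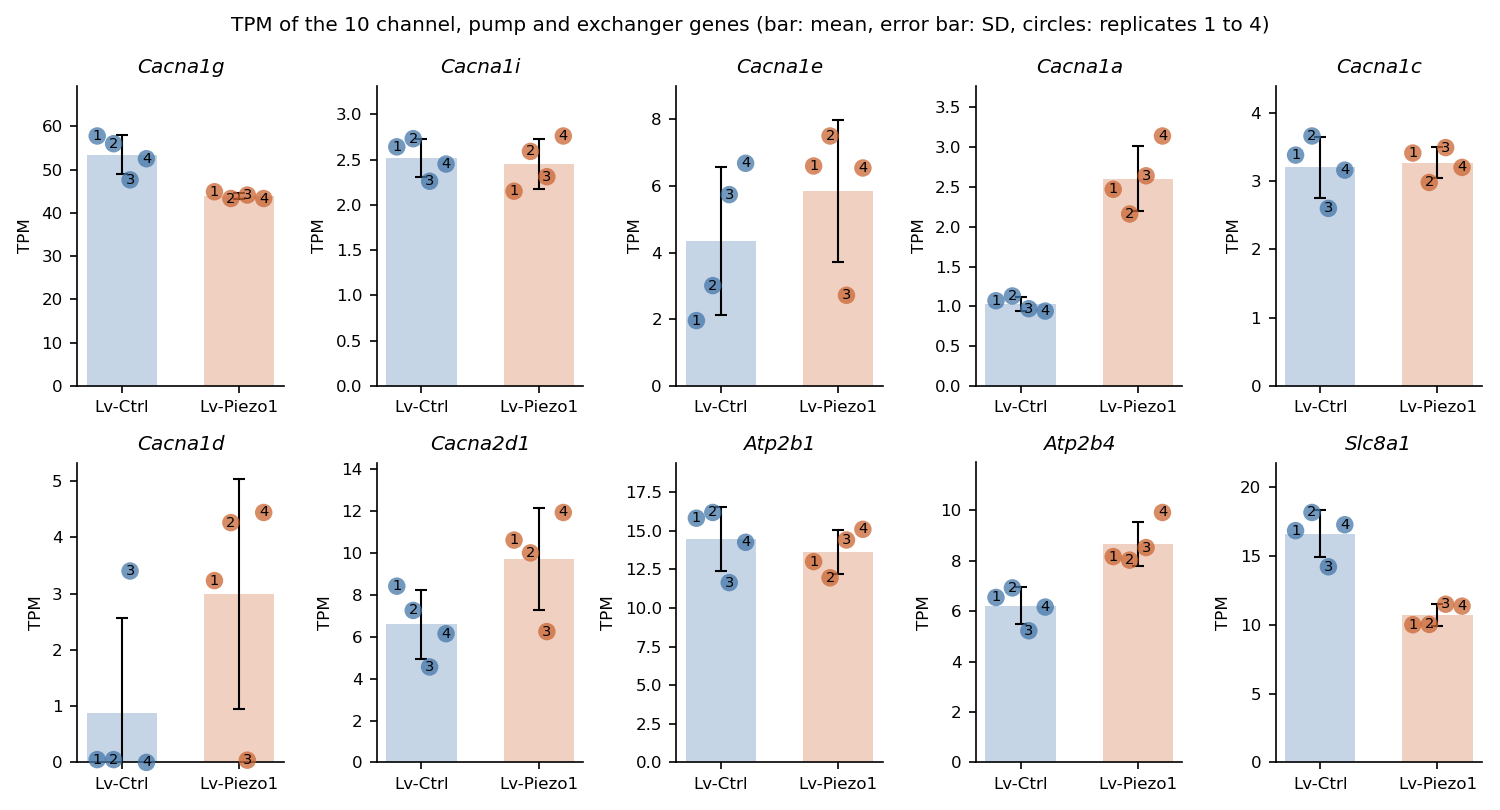
TPM (vertical axis, from 0, a scale for each panel) of the 10 genes in Lv-Ctrl (blue) and Lv-Piezo1 (orange); bars are means, error bars the SD of 4 samples (cut off at 0 for Cacna1d), and the numbered circles are replicates 1 to 4. The groups are separate for Cacna1g, Cacna1a, Atp2b4 and Slc8a1, while Cacna1d switches between about 0 and over 3 TPM within both groups.

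The levels of the 10 genes spanned a wide range. In Lv-Ctrl, Cacna1g was highest at 53.5 ± 4.46 TPM, above every sample of any other member. Slc8a1 and Atp2b1 followed at 16.6 ± 1.70 and 14.5 ± 2.06 TPM and could not be separated from each other. Cacna2d1, Atp2b4, Cacna1e, Cacna1c and Cacna1i came next, each overlapping its neighbour, from 6.60 TPM down to 2.52 TPM. Cacna1a and Cacna1d were lowest, at 1.03 and 0.875 TPM. In Lv-Piezo1 the order was similar, but Atp2b1 lay above Slc8a1 in every sample, and Slc8a1 overlapped Cacna2d1. The mean level of Cacna1g over the 8 samples exceeded that of 79.4% of tested genes. The next most abundant members, Atp2b1 and Slc8a1, exceeded 51.0% and 50.4%, and Cacna1a exceeded 7.76%.

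Cacna1g (ENSRNOG00000060528) encodes the pore of a T-type channel, which opens at weak depolarisation and inactivates quickly. It measured 57.8, 56.0, 47.6 and 52.5 TPM in Lv-Ctrl replicates 1 to 4 and 44.9, 43.3, 44.1 and 43.3 TPM in Lv-Piezo1 replicates 1 to 4. Every Lv-Piezo1 sample lay below the lowest Lv-Ctrl sample, by a narrow margin against Lv-Ctrl replicate 3, and the spread in Lv-Piezo1 was small (SD 0.749 TPM). The log2 fold change was -0.27 (standard error 0.06, 95% interval -0.41 to -0.14, limma adjusted p = 0.0029). The mean fell by 17.9%. After median-ratio scaling it was -0.43.

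Cacna1i (ENSRNOG00000060407) encodes another T-type pore, found mainly in neurons. It measured 2.64, 2.73, 2.26 and 2.45 TPM in Lv-Ctrl and 2.15, 2.59, 2.31 and 2.76 TPM in Lv-Piezo1. The groups overlapped almost entirely. Its log2 fold change was -0.03, with a 95% interval of -0.24 to 0.18 (limma adjusted p = 0.81). After quantile normalization it was -0.25 with an adjusted p of 0.025. A difference between the T-type pores in their change was not tested.

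Cacna1a (ENSRNOG00000052707) encodes the pore of the P/Q-type channel that triggers transmitter release at synapses. It was 1.07, 1.13, 0.97 and 0.94 TPM in Lv-Ctrl and 2.47, 2.16, 2.64 and 3.14 TPM in Lv-Piezo1. The lowest Lv-Piezo1 sample was well above the highest Lv-Ctrl sample, and the ratio of the means was 2.53. On the log2(TPM + 1) scale the fold change was 0.82 (standard error 0.11, 95% interval 0.57 to 1.08, limma adjusted p = 2.0e-04), short of the fold threshold. With a pseudocount of 0.1 in place of 1, it was 1.25 and Cacna1a was called, the only member to be so, where 11.0% of all tested genes were called.

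Neuronal markers were read beside this gene. Of 8 markers, 5 were below 1 TPM in every sample, and the defining genes Rbfox3 and Elavl4 were listed at 0 throughout. Among the others, Tubb3 was 3.34 TPM in Lv-Ctrl and 9.54 TPM in Lv-Piezo1, Stmn2 was 0.0425 and 1.13 TPM, and Snap25 was 2.94 and 0.543 TPM (means, n = 4 each). The summed level of the 8 markers was 5.97 to 7.63 TPM in Lv-Ctrl and 11.5 to 12.4 TPM in Lv-Piezo1. The part of neuronal cells in the level of Cacna1a was not tested.

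Cacna1c (ENSRNOG00000007090) encodes the L-type pore that drives contraction of heart and smooth muscle. It measured 3.38, 3.66, 2.60 and 3.16 TPM in Lv-Ctrl and 3.41, 2.98, 3.49 and 3.20 TPM in Lv-Piezo1. All 4 Lv-Piezo1 values fell within the range of Lv-Ctrl. The log2 fold change was 0.03 (95% interval -0.19 to 0.25, limma adjusted p = 0.82), and its sign turned after median-ratio scaling (-0.09) and quantile normalization (-0.19).

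Markers of smooth muscle and pericytes, cells in which Cacna1c is prominent, stood far apart in the same samples. The summed level of 13 such genes was 861 to 899 TPM in Lv-Ctrl and 4755 to 4914 TPM in Lv-Piezo1. Of these, 11 were tested, with 7 called higher and 2 called lower, against 4.91% and 2.76% of all tested genes. Acta2, smooth muscle actin, had means of 51.2 and 1344 TPM, and Myh11, smooth muscle myosin, had 1.80 and 47.9 TPM. Rgs5, a pericyte marker, was below 1 TPM in every sample. Kcnj8, a potassium channel of pericytes, had means of 326 and 39.1 TPM. The part of such cells in the members' levels was not tested.

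Cacna1d (ENSRNOG00000013147) encodes the other L-type pore of the set, which opens at less depolarised potentials and serves in endocrine cells, hair cells and the pacemaker of the heart. It measured 0.05, 0.05, 3.40 and 0 TPM in Lv-Ctrl and 3.23, 4.26, 0.04 and 4.44 TPM in Lv-Piezo1. It was thus above 3 TPM in 1 of 4 Lv-Ctrl samples and 3 of 4 Lv-Piezo1 samples and at most 0.05 TPM in the others, with no intermediate value. From values per gene, a change in RNA level cannot be told apart from reads being assigned to another gene model, which bears also on the sums and shares below that hold Cacna1d. The difference between groups did not exceed this spread (log2 fold change 1.17, standard error 0.64, 95% interval -0.28 to 2.63, limma adjusted p = 0.15, exact two-sided permutation test p = 0.23). Without Lv-Ctrl replicate 3 the log2 fold change was 1.70 (adjusted p = 0.030), and without Lv-Piezo1 replicate 3 it was 1.74 (adjusted p = 0.024), both past the threshold, so each of these samples decides the call.

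Cacna1e (ENSRNOG00000002863) encodes the R-type pore of neurons and endocrine cells. It measured 1.96, 3.01, 5.74 and 6.68 TPM in Lv-Ctrl and 6.60, 7.5, 2.72 and 6.54 TPM in Lv-Piezo1. Its low samples were Lv-Ctrl replicates 1 and 2 and Lv-Piezo1 replicate 3, all of which were also low in Cacna1d, but Lv-Ctrl replicate 4 was high in Cacna1e with Cacna1d listed at 0. The groups overlapped, and the log2 fold change of 0.39 was not separable from 0 (standard error 0.35, 95% interval -0.41 to 1.19, limma adjusted p = 0.37). It was 0.14 without Lv-Ctrl replicate 1 and 0.66 without Lv-Piezo1 replicate 3.

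Cacna2d1 (ENSRNOG00000033531) encodes an alpha2delta subunit, the binding site of gabapentin, which raises the number of channels at the surface. It measured 8.42, 7.26, 4.56 and 6.15 TPM in Lv-Ctrl and 10.6, 10.0, 6.25 and 11.9 TPM in Lv-Piezo1. In Lv-Piezo1, 3 samples exceeded all of Lv-Ctrl, and Lv-Piezo1 replicate 3 lay within it. The log2 fold change was 0.49 (standard error 0.21, 95% interval 0.02 to 0.96), which did not pass the adjustment over all genes (limma adjusted p = 0.069, exact two-sided permutation test p = 0.086). Without Lv-Piezo1 replicate 3 it was 0.67 with an adjusted p of 0.013, and without Lv-Ctrl replicate 1 it was 0.60 with an adjusted p of 0.046.

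The share of each alpha1 gene in the pore RNA of a sample follows from these levels, which do not measure channel protein. Summed over the 10 alpha1 genes, TPM was 62.6 to 66.9 in Lv-Ctrl and 55.6 to 63.7 in Lv-Piezo1. Cacna1g held 76.1% to 86.4% of the sum in Lv-Ctrl and 68.1% to 79.4% in Lv-Piezo1, ranges that overlap through Lv-Piezo1 replicate 3, whose share was 79.4%. The share of Cacna1a was 1.43% to 1.70% in Lv-Ctrl and 3.42% to 4.93% in Lv-Piezo1, with no overlap. The alpha1 genes other than Cacna1g summed to 9.11 to 15.0 TPM in Lv-Ctrl and 11.5 to 20.3 TPM in Lv-Piezo1.

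**Figure D2:**
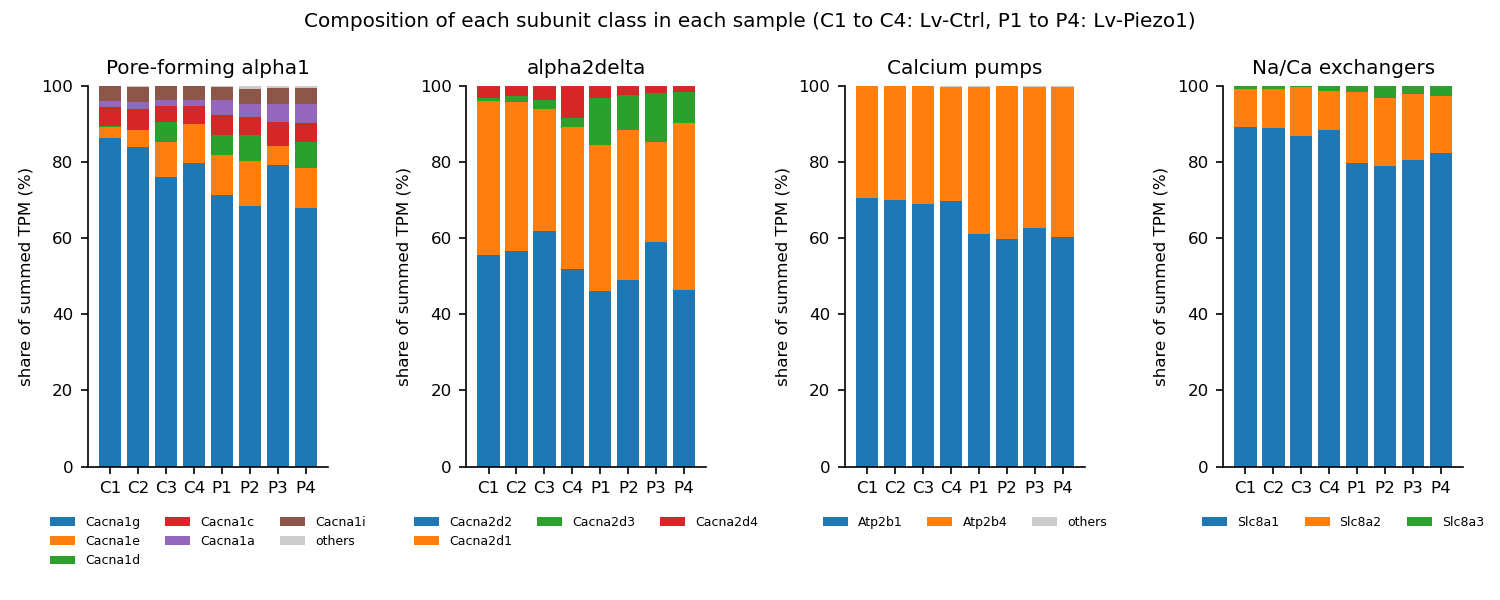
Share of each gene in the summed TPM of its class (vertical axis, percent) for pore-forming alpha1 subunits, alpha2delta subunits, calcium pumps and sodium-calcium exchangers, in Lv-Ctrl replicates 1 to 4 (C1 to C4) and Lv-Piezo1 replicates 1 to 4 (P1 to P4); genes under 1% in every sample are pooled as others. Cacna1g leads the pores in all 8 samples, and Atp2b4 holds 29.2% to 30.9% of pump TPM in Lv-Ctrl and 37.1% to 40.1% in Lv-Piezo1.

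Of the calcium pumps, Atp2b1 (ENSRNOG00000004026), the housekeeping form found in nearly all cells, was the more abundant. It measured 15.8, 16.2, 11.6 and 14.3 TPM in Lv-Ctrl and 13.0, 12.0, 14.4 and 15.1 TPM in Lv-Piezo1. The groups overlapped, with a log2 fold change of -0.08 (standard error 0.11, 95% interval -0.32 to 0.17, limma adjusted p = 0.57). Its adjusted p was 0.0495 after median-ratio scaling (log2 fold change -0.23) and 0.032 after quantile normalization (-0.25).

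Atp2b4 (ENSRNOG00000003031), a pump form prominent in smooth muscle, red cells and sperm, was higher in Lv-Piezo1. It measured 6.54, 6.92, 5.22 and 6.16 TPM in Lv-Ctrl and 8.16, 8.02, 8.52 and 9.91 TPM in Lv-Piezo1. Each Lv-Piezo1 sample lay above each Lv-Ctrl sample, and the mean was 39.3% higher (log2 fold change 0.42, standard error 0.09, 95% interval 0.21 to 0.63, limma adjusted p = 0.0037). After median-ratio scaling the log2 fold change was 0.28. After quantile normalization it was 0.23. Of the smooth muscle and pericyte markers described above, 7 were called higher and 2 lower in the same samples. Over all tested genes, 4.91% were called higher and 2.76% lower. The part of cells with these markers in the differences of Atp2b4 and of Slc8a1 was not tested.

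Together the 4 pump genes of the rat summed to 16.9 to 23.1 TPM in Lv-Ctrl and 19.99 to 25.1 TPM in Lv-Piezo1, which overlap. The share of Atp2b4 in this sum was nearly constant within a group, at 30.1% ± 0.703 in Lv-Ctrl and 38.8% ± 1.33 in Lv-Piezo1 (SD, n = 4 each), and that of Atp2b1 was 69.8% ± 0.693 and 61.0% ± 1.31. These shares do not change when all values of a sample are multiplied by a single factor, as in median-ratio scaling. Quantile normalization is not of that kind, and the shares were not computed after it. Atp2b2 was listed at 0 in all samples, and Atp2b3 was at most 0.07 TPM.

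Slc8a1 (ENSRNOG00000008479), the exchanger of heart and smooth muscle that moves much calcium at low affinity, had the largest fall of the 10 genes. It measured 16.9, 18.2, 14.2 and 17.3 TPM in Lv-Ctrl and 10.0, 10.0, 11.5 and 11.4 TPM in Lv-Piezo1. The highest Lv-Piezo1 sample lay well below the lowest Lv-Ctrl sample. The mean fell by 35.5% (log2 fold change -0.59, standard error 0.08, 95% interval -0.77 to -0.40, limma adjusted p = 2.5e-04). Over the alternative settings it stayed between -0.76 and -0.54.

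**Figure D3:**
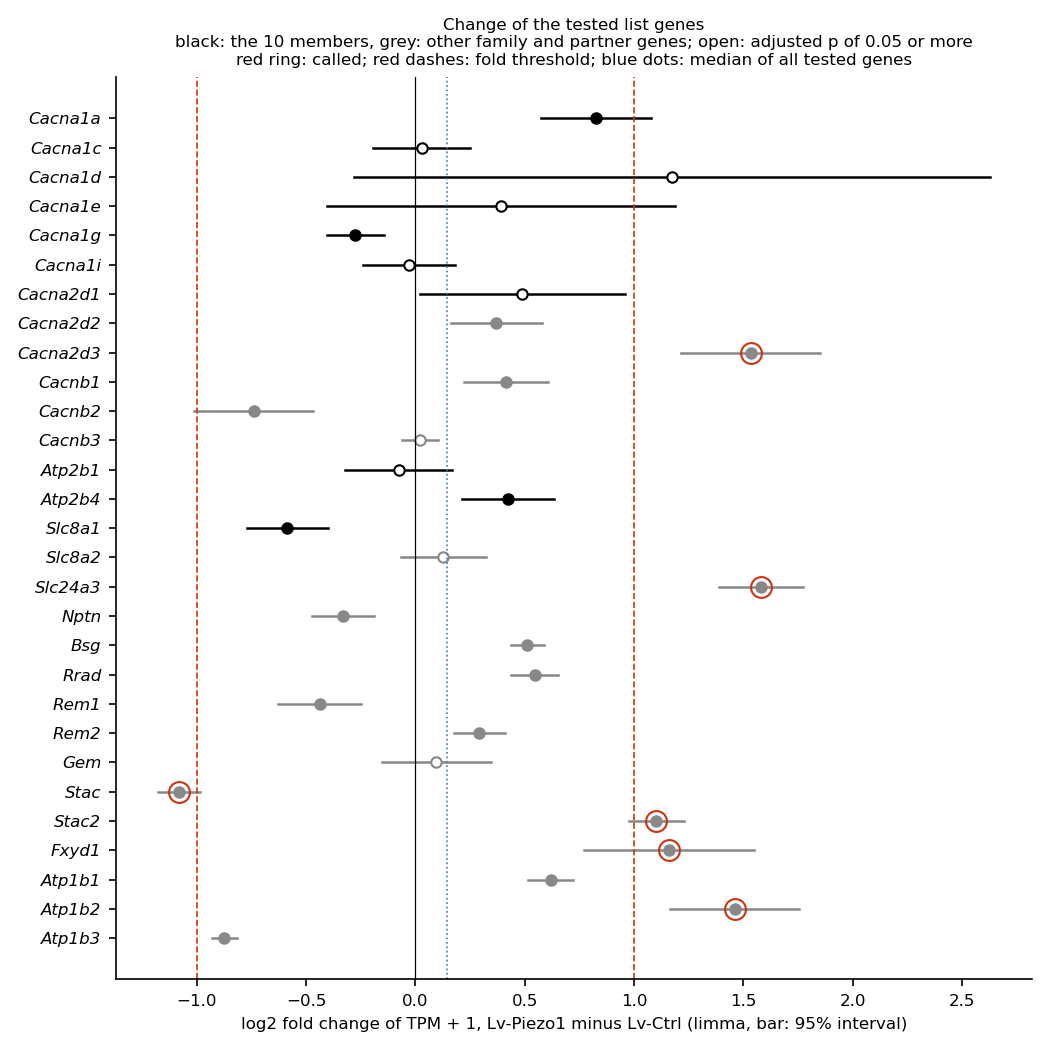
Log2 fold change of TPM + 1 (horizontal axis, Lv-Piezo1 minus Lv-Ctrl) with its limma 95% interval, not adjusted for the number of genes, for the tested genes of the list that are described in the text; black marks the 10 members, grey the others, open circles an adjusted p of 0.05 or more, red rings called genes, red dashes the fold threshold and the blue dotted line the median of all tested genes (0.14). Cacna2d3, Slc24a3, Stac, Stac2, Fxyd1 and Atp1b2 are called and no member is, Cacna1d lying past the fold threshold with an adjusted p of 0.15.

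The members were then set among the rest of their families and known partners, a list of 54 genes (38 family genes, of which 10 are the members, and 16 partners). Of these, 30 were tested and 6 were called, against 7.67% of all tested genes. By direction, 5 were higher and 1 lower, against 4.91% and 2.76% of all tested genes. All 6 were among the 20 tested genes that are not members. Of the called genes, Cacna2d3 and Atp1b2 averaged 0.285 and 0.388 TPM in Lv-Ctrl. They passed the limit for testing only through Lv-Piezo1, the group where they are high. By the adjusted p alone 21 of the 30 differed, 13 higher and 8 lower, against 58.2% of all tested genes (41.9% higher, 16.3% lower). The split of all tested genes by direction depended on the scaling, as given above. The median log2 fold change of the 30 was 0.33, and that of all tested genes 0.14.

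Among channel subunits, only the alpha2delta gene Cacna2d3 was called. It passed the limit for testing only through its level in Lv-Piezo1, its Lv-Ctrl mean being 0.285 TPM. It was 0.17, 0.27, 0.34 and 0.36 TPM in Lv-Ctrl and 3.40, 2.32, 3.07 and 2.19 TPM in Lv-Piezo1 (log2 fold change 1.53, standard error 0.14, limma adjusted p = 1.7e-05). Its share of alpha2delta TPM went from at most 2.39% to at least 8.05%. Cacna2d2, the most abundant alpha2delta gene in the means of both groups, was 9.85 ± 1.41 TPM and 12.9 ± 0.718 TPM (log2 fold change 0.37, limma adjusted p = 0.0070). Its log2 fold change was 0.22 after median-ratio scaling (adjusted p = 0.042) and 0.19 after quantile normalization (adjusted p = 0.062). Summed over the 4 alpha2delta genes, TPM was 14.2 to 20.8 in Lv-Ctrl and 23.8 to 27.6 in Lv-Piezo1, with no overlap.

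The beta subunits, which escort pores other than the T-type to the membrane, were led by Cacnb3. This gene was at 91.4 ± 3.35 TPM in Lv-Ctrl and 92.6 ± 2.25 TPM in Lv-Piezo1 (SD, n = 4 each). Its log2 fold change was 0.02, with a narrow 95% interval of -0.06 to 0.10 (limma adjusted p = 0.67). After median-ratio scaling it was -0.14 with an adjusted p of 0.011. The minor beta genes moved apart. Cacnb1 was 3.99 ± 0.407 and 5.63 ± 0.472 TPM (log2 fold change 0.41, adjusted p = 0.0026). After quantile normalization the log2 fold change of Cacnb1 was 0.20 with an adjusted p of 0.068. Cacnb2, the main beta gene of the heart, was 3.29 ± 0.667 and 1.55 ± 0.0852 TPM (log2 fold change -0.74, adjusted p = 6.5e-04). With a pseudocount of 0.1 Cacnb2 was called lower (-1.02). None of the 8 gamma genes reached the limit for testing.

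Of the 7 listed adaptors and inhibitors of the channels, 6 were tested and 5 had an adjusted p below 0.05, a share to be read against the 58.2% of all tested genes. Stac and Stac2 encode adaptors that bind L-type channels and slow their inactivation. Stac was 29.9 ± 0.977 TPM in Lv-Ctrl and 13.6 ± 0.467 TPM in Lv-Piezo1 (log2 fold change -1.08, standard error 0.04, adjusted p = 8.3e-08), and Stac2 was 8.21 ± 0.410 and 18.8 ± 0.971 TPM (log2 fold change 1.10, standard error 0.06, adjusted p = 3.9e-07). The call of Stac2 was lost after median-ratio scaling (0.95) and quantile normalization (0.93), in which its direction stayed. Of the small GTPases that inhibit voltage-gated calcium channels, Rrad (37.2 and 54.7 TPM) and Rem2 (25.4 and 31.4 TPM) were higher and Rem1 (16.5 and 12.0 TPM) lower by the adjusted p, below the fold threshold. After median-ratio scaling the adjusted p of Rem2 was 0.068. Gem was 5.82 and 6.28 TPM (log2 fold change 0.10, 95% interval -0.15 to 0.35), and its sign turned after median-ratio scaling (-0.04) and quantile normalization (-0.10).

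The pump partners Bsg and Nptn, membrane proteins of the basigin family that form complexes with plasma membrane calcium pumps, were far more abundant than the pumps. Bsg was 1292 ± 38.6 TPM in Lv-Ctrl and 1842 ± 57.0 TPM in Lv-Piezo1 (log2 fold change 0.51, adjusted p = 2.0e-06). Nptn was 214 ± 17.3 and 170 ± 8.47 TPM (log2 fold change -0.33, adjusted p = 0.0015). Both have roles besides the pumps, Bsg as the chaperone of lactate carriers.

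Among the exchangers, Slc24a3, which moves calcium and potassium out against sodium, rose where Slc8a1 fell. It was 1.51, 1.38, 1.26 and 1.64 TPM in Lv-Ctrl and 5.69, 6.25, 6.63 and 6.69 TPM in Lv-Piezo1 (log2 fold change 1.58, standard error 0.09, adjusted p = 5.8e-07). Slc8a2 was 2.00 ± 0.114 and 2.29 ± 0.160 TPM (log2 fold change 0.13, 95% interval -0.07 to 0.32, adjusted p = 0.23), and -0.09 on the log2 scale after quantile normalization. The summed TPM of the 3 Slc8a genes was 16.4 to 20.4 in Lv-Ctrl and 12.6 to 14.3 in Lv-Piezo1, and that of the 5 Slc24a genes was 1.68 to 2.70 and 6.30 to 7.2. Slc8a1 held 88.4% ± 1.09 of the Slc8a sum in Lv-Ctrl and 80.4% ± 1.41 in Lv-Piezo1. Fxyd1, which encodes phospholemman, a regulator of the exchanger and the sodium pump in heart, was 2.35, 2.39, 1.48 and 1.72 TPM in Lv-Ctrl and 7.26, 3.87, 5.76 and 6.01 TPM in Lv-Piezo1 (log2 fold change 1.16, standard error 0.17, adjusted p = 3.7e-04), a call lost after quantile normalization (0.95).

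The sodium pump keeps up the sodium gradient on which both kinds of exchanger draw. Of its beta subunits, Atp1b3 was 462 ± 5.92 TPM in Lv-Ctrl and 252 ± 3.70 TPM in Lv-Piezo1 (log2 fold change -0.87, adjusted p = 1.2e-08), short of the threshold but past it after median-ratio scaling (-1.04). Atp1b1 was 66.8 ± 3.40 and 103 ± 4.23 TPM (log2 fold change 0.62, adjusted p = 4.8e-06), and Atp1b2 was called higher, at 0.388 ± 0.155 and 2.81 ± 0.378 TPM (log2 fold change 1.46, standard error 0.13, adjusted p = 1.5e-05). SD is over 4 samples in each group throughout, and adjusted p values are from limma.

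**Figure D4:**
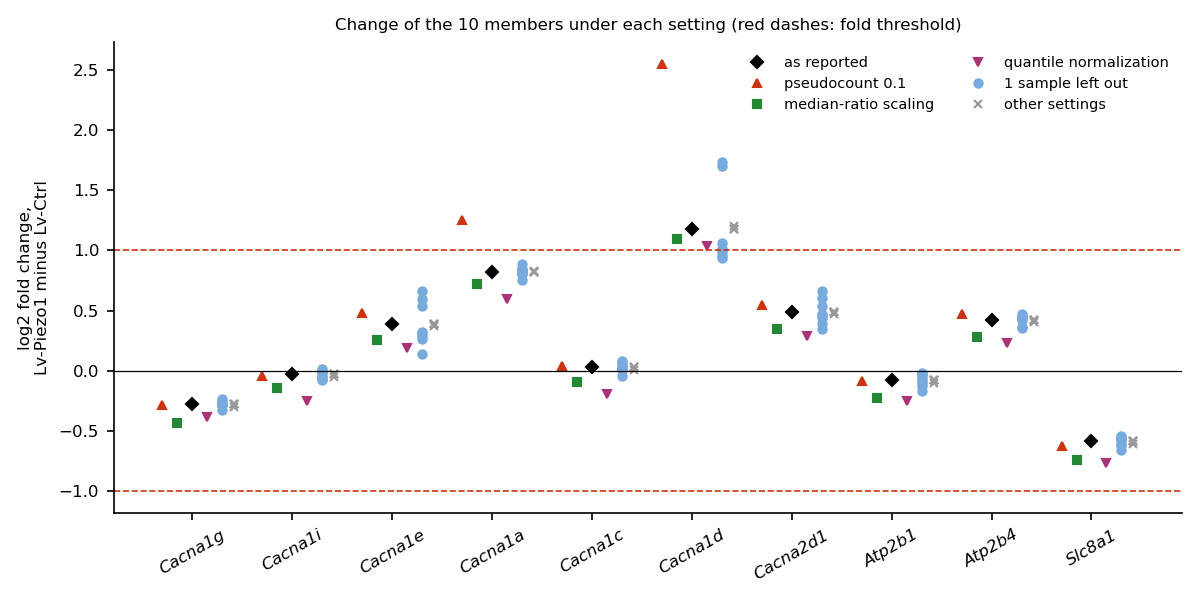
Log2 fold change of each member (vertical axis, Lv-Piezo1 minus Lv-Ctrl) as reported (black diamonds) and under each alternative setting (coloured symbols), with the fold threshold as red dashes. Cacna1c and Cacna1i cross 0, the other members keep their sign in all settings that test them, and Cacna1d spreads from 0.94 to 2.55.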

How the data were processed

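RNA-seq of 8 samples (4 Lv-Ctrl, 4 Lv-Piezo1) was used, grouped by the sample titles. According to the study's methods, the authors discarded reads with adapters, poly-N stretches or low quality before alignment to the rat genome by HISAT2 and transcript assembly by StringTie. The deposited values are TPM, rounded to 2 decimals, with the authors' mean of each group, which was not used. How TPM was made from the reads, and the genome build and annotation, are not given in the sources used here. The submitters' processing notes name mm10, a mouse build, and DESeq2, whereas 30560 rows carry rat Ensembl identifiers. No coordinates are given for that reason. Count models were not used, since TPM values are not counts.

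From the deposited TPM, log2(TPM + 1) was fitted with limma 3.58.1 in R 4.3.3 (empirical Bayes with a trend, no block) for the 13103 genes averaging 1 TPM or more. Adjusted p values cover all of these genes. The threshold was an adjusted p of 0.05 and a log2 fold change of 1. Single genes were compared with exact two-sided permutation tests over 70 relabelings (scipy 1.17.1). The fit was tested on simulated data. The genes named are the 10 members, the Piezo1 check, and every gene of a list of 54 that was called or averaged 1 TPM or more, except 1 that is counted but not reported here. Which marker genes and untested genes to name was decided after their values were seen. The members and lists were chosen with earlier results of these data known, and the lists hold genes from general knowledge. Alternatives were quantile normalization, median-ratio scaling, a pseudocount of 0.1, no filter or one at 5 TPM, dropping mitochondrially encoded genes, no trend, a replicate block, no fold threshold and leaving out each sample. The counts of members by adjusted p alone were added to the alternatives after the data were seen.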

Additional observations from a re-analysis of the deposited data

Results flagged for a closer look

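In 4 of the 62 groups of 4 samples examined among the tested genes, a single sample stood apart, the gap to its nearest neighbour taking up more of the group's range than Dixon's 95% limit. Chance does so in about 1 of 20 groups. Cacna1d measured 3.40 TPM in Lv-Ctrl replicate 3, where the other Lv-Ctrl samples were at 0.05 TPM or below. Bsg (1349 TPM) and Rrad (39.6 TPM) were also highest in Lv-Ctrl replicate 3 among the Lv-Ctrl samples, and both stayed below every Lv-Piezo1 sample. Cacna2d2 measured 14.0 TPM in Lv-Piezo1 replicate 3, above the other samples with that label. The reason for these values was not tested.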

How the results depend on the processing

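No member was called as reported, and none was called with no filter, a filter at 5 TPM, median-ratio scaling, quantile normalization, without mitochondrially encoded genes, without the trend or with the replicate block. With a pseudocount of 0.1 there was 1 (Cacna1a), where 11.0% of all tested genes were called. With no fold threshold there were 4, where 58.2% of all tested genes passed. Leaving out 1 sample gave 0 to 1, the 1 being Cacna1d without Lv-Ctrl replicate 3 or without Lv-Piezo1 replicate 3. Of all 13103 tested genes, 1030 and 1018 were called in these 2 settings. Of the 54 listed genes, 30 were tested and 6 called, against 1005 of all 13103 tested genes. With a filter at 5 TPM, which leaves Cacna2d3, Slc24a3, Fxyd1 and Atp1b2 untested, 2 were called, against 628 of all 9719. With no fold threshold 21 passed, against 58.2% of all tested genes. The number of members with an adjusted p below 0.05 (4) ranged from 3, at 5 TPM where Cacna1a was untested, to 6. It was 6 after quantile normalization and without Lv-Piezo1 replicate 3. Over all genes this number was 7626 of 13103 as reported and 6052 of 9719 at 5 TPM. Of 13103 genes, it was 7336 after quantile normalization and 6972 without Lv-Piezo1 replicate 3. Cacna1a kept its adjusted p below 0.05 in 15 of 15 alternatives, and Cacna1g, Atp2b4 and Slc8a1 in 16 of 16. The direction of Cacna1c turned with median-ratio scaling (-0.095), quantile normalization (-0.19) and in the range over left-out samples (-0.043 to 0.081), and that of Cacna1i in the latter range (-0.072 to 0.014). The cause was not tested. Over all tested genes the calls were 644 higher and 361 lower as reported, 514 and 468 after median-ratio scaling, and 463 and 485 after quantile normalization. With the replicate block, 0 members and 6 listed genes were called, against 1004 of all 13103 tested genes. By the adjusted p alone 5 members passed, Cacna2d1 being added (limma adjusted p = 0.0105), against 6971 of all 13103. Samples of the same number did not deviate together (correlations -0.058 to -0.012), so the number was not taken as a pairing. The depth is unknown, which limits what can be said of genes near 0 TPM.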

Other observations

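Some family genes were below the limit for testing, and the values of a few are given here. Cacng7, a gamma subunit gene of nervous tissue, was 0.24, 0.07, 0.08 and 0.11 TPM in Lv-Ctrl and 0.97, 0.91, 1.09 and 1.15 TPM in Lv-Piezo1, without overlap. Cacna1h, the third T-type pore, was at most 0.01 TPM in Lv-Ctrl and 0.09, 0.35, 0.17 and 0.20 TPM in Lv-Piezo1. Slc24a5, a potassium-dependent exchanger known from pigment cells, had means of 0.793 ± 0.328 TPM in Lv-Ctrl and 0.265 ± 0.158 TPM in Lv-Piezo1 (SD, n = 4 each), with overlap. These genes were picked after their values were seen, and no adjusted p is given for them.

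Lv-Ctrl replicate 2 held more RNA of skeletal muscle genes than the other samples. Ckm was 14.0 TPM there and at most 2.18 TPM elsewhere, and Myh4 was 4.26 TPM there and at most 0.64 TPM elsewhere. The summed level of 5 skeletal muscle markers was 43.5 TPM in this sample. Cacna1s, the channel pore of skeletal muscle, was 0.07 TPM in it and at most 0.03 TPM elsewhere. Without this sample 0 members were called and 4 had an adjusted p below 0.05 in limma, as with it. Of all 13103 tested genes, 1026 were then called and 7321 had an adjusted p below 0.05.

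Other marker lists gave the following values. Summed over 5 chondrocyte-like markers, TPM was 32.0 to 38.9 in Lv-Ctrl and 49.9 to 53.3 in Lv-Piezo1, with Col2a1, Col9a1 and Matn3 below 1 TPM throughout. Neither of the 2 tested was called, Acan having means of 31.6 and 47.1 TPM and Sox9 of 3.89 and 3.85 TPM. Of 7 macrophage and leukocyte markers, 5 were below 1 TPM in every sample and Adgre1 was listed at 0, while Cd68 had means of 0.955 and 12.3 TPM. Of 5 Schwann cell markers, 4 were below 1 TPM in every sample and Sox10 was listed at 0, while S100b had means of 328 and 141 TPM. The 7 endothelial markers found were all below 1 TPM, with sums of 0.34 to 0.61 TPM in Lv-Ctrl and 0.39 to 0.62 TPM in Lv-Piezo1. The part of such cells in the levels of the channels and pumps was not tested.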
